A study of Homo sapiens with 2 samples.

Results

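The genes described here are the growth factors FGF9 and FGF2, the FGF receptors FGFR1, FGFR2, FGFR3 and FGFR4, and the feedback inhibitors SPRY1, SPRY2, SPRY4 and SPRED1. They were taken as all probe sets that the platform annotation pairs with exactly 1 of these 10 symbols, which gave 35 of the 54675 probe sets on the array, or 10 of 19775 genes that have a single-gene probe set. The set was chosen by the difference of FGF9 between these arrays, with the other genes taken for their role beside it, so the FGF9 values are given as a description. The stable CA9 and vector derivatives of C33-A were compared, C33-A being a human cervical carcinoma cell line long in culture, adherent and of a morphology that the labels give as epithelial. The CA9 line carried the full-length cDNA of human CA9, which encodes the membrane enzyme carbonic anhydrase IX, in the expression vector pcDNA3.0, and the vector line carried the empty vector. The labels describe the CA9 protein as strongly expressed in the first line. Both lines grew in RPMI with fetal bovine serum at 10%, penicillin and streptomycin at 1% and CO2 at 5%. Total RNA came from cultures at day 4 after seeding, and 5 µg of it was made into biotinylated cRNA. There was 1 Affymetrix array per line, and whether each line was a clone or a pool is not stated in the labels. No difference has a replicate check, so no p-value or standard error is given and each value describes these 2 arrays.

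Fibroblast growth factors are secreted proteins that bind receptor tyrosine kinases together with heparan sulphate. The activated receptor recruits docking and adaptor proteins and starts the RAS-RAF-MEK-ERK cascade, which switches on transcription factors of the ETS family and other early genes. Among the genes that the cascade induces are its own inhibitors, the Sprouty and SPRED proteins, which restrain RAS and RAF activation, and dual-specificity phosphatases that remove phosphate from ERK. FGF9 acts mainly between epithelium and mesenchyme in development and prefers the receptor forms made in mesenchymal cells.

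FGF2, SPRY4 and SPRED1 were, besides FGF9, the members whose every probe set was dimmer on the CA9 array, and the sequence before their RefSeq start is shown for that reason. For SPRY4 this rests on 1 probe set. A dimmer value was common, at 53.0% of the single-gene probe sets that were bright enough to measure. Each line gives the 250 bases before the start, 5′ to 3′ on the strand of the gene, from the RefSeq promoter table of build GRCh38.p14, with matches to the GC box (GGGCGG, either strand) in capitals. FGF2 lies on the plus strand (chr4:122826581-122826830), SPRY4 on the minus strand (chr5:142324248-142324497) and SPRED1 on the plus strand (chr15:38252586-38252835).
FGF2: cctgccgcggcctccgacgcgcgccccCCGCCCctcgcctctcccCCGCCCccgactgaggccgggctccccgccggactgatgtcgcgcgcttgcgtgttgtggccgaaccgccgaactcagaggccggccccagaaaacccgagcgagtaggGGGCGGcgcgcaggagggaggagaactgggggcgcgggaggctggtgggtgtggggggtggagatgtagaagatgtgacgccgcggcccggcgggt
SPRY4: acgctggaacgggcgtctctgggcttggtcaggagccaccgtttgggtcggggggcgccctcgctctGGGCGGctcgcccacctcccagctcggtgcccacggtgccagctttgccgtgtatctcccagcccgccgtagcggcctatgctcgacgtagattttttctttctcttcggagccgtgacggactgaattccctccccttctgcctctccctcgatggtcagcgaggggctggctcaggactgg
SPRED1: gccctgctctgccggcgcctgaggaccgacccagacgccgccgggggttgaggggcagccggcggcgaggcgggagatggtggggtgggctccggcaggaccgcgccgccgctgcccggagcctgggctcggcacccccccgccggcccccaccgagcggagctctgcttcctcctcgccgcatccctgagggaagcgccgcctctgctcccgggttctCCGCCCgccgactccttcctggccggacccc

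The FGF2 sequence held 3 GC boxes and a GC content of 75.2%, the SPRY4 sequence 1 and 65.6%, and the SPRED1 sequence 1 and 78.4%. The median GC content was 58% over all 35116 promoter windows of this length, and 42.6% of those windows held a GC box. Among the 16 windows of the 8 members with an entry, 9 held one, and a window of FGFR4, whose probe sets were all brighter on the CA9 array, held 7. None of the 3 printed sequences held the core of the hypoxia response element (ACGTG, either strand), which 18.5% of all windows held, nor an ETS core (CCGGAA, either strand, 14.5%) or a TATA box (TATAAA, either strand, 10.7%). Among the 16 member windows 2 held the hypoxia core, in FGFR2 and FGFR4. An ETS core was held by 2, in SPRY1 and SPRY2, and a TATA box by none. FGF9 and FGFR1 have no entry in the table.

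Of the 35 probe sets, 23 were measurable, meaning that at least 1 array lay above a floor set at the median intensity of all probe sets, 40.8. Of the 10 genes, 9 were measurable in their brightest probe set, which stands for the gene, and SPRY2 was not. Differences are log2 of the CA9 array minus log2 of the vector array, and a gene is called where the arrays differ at least 2-fold. FGF9 was the only member called, in the lower direction, where 0.694% of all 13823 measurable genes were called lower and 0.651% higher. The median difference over the 9 measurable members was -0.17, against -0.03 over all measurable genes. Of these 9 genes 7 lay below 0, and of all genes 53.0% did. Over the 23 measurable probe sets the count was even, 11 below 0 and 12 above, with a median of 0.05. Of these 23, 19 lay above the floor on both arrays. The others passed it on 1 array alone, which fixed their sign. FGF9, by whose difference the set was chosen, is included in these member counts and medians.

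**Figure D1:**
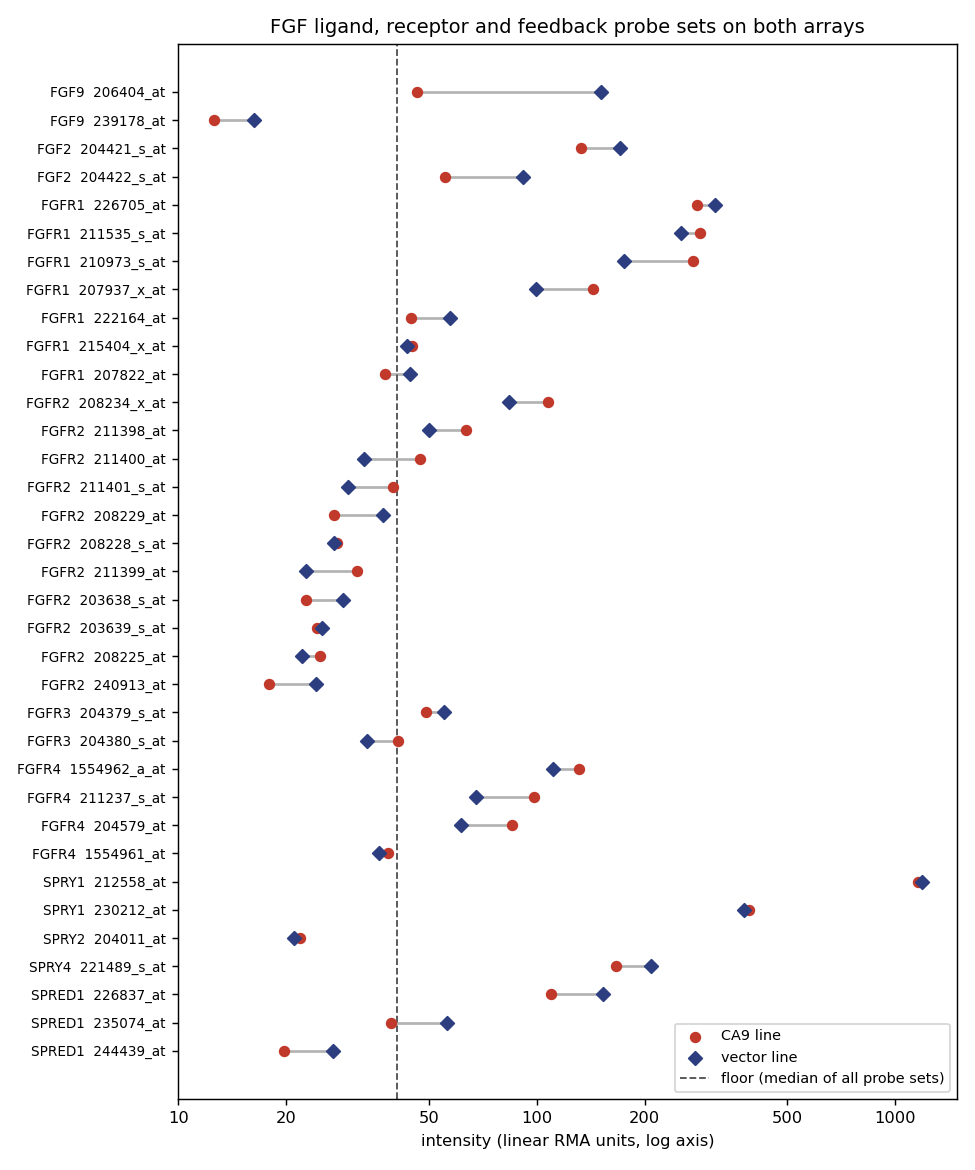
Intensity of all 35 probe sets of the 10 genes on the CA9 array (circles) and the vector array (diamonds), on a log axis, with a dashed line at the floor of 40.8. The brighter FGF9 probe set spans 46.4 to 151, the widest gap in the plot, while SPRY2 and most FGFR2 probe sets lie left of the floor on both arrays.

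The arrays differed in a way that follows intensity, and this bears on every dim member. When measurable genes were divided into 5 bins of equal size, the median difference was 0.14 in the dimmest bin, 0.07 in the next, then -0.06, -0.14 and -0.09 in the brightest. Within a gene, differences of probe sets above the floor on both arrays scattered around the mean of the gene with a pooled SD of 0.29 over 5428 genes. Probe sets of a gene share RNA and array, so this SD is no replicate error. Among markers of the labelled tissue, the epithelial genes EPCAM and CDH1 lay below the floor on both arrays, while KRT8 read 101 with CA9 and 68.3 with the vector and KRT18 read 80.2 and 56.1. Of 4 genes listed as markers of C33-A, the cell cycle inhibitor CDKN2A read 2659 and 2739, and NEFM lay below the floor on both arrays. The neuronal genes NEFH (838 with CA9, 233 with the vector, 3.60-fold) and MAP2 (1573 and 666, 2.36-fold) were higher with CA9. Of 6 fibroblast markers 5 were measurable and none was called, with intensities summed over all 6 of 2908 and 2703, mostly from COL3A1. Of 4 endothelial markers 2 were measurable, with sums over all 4 of 181 and 152. Of 3 blood markers 2 were measurable, with sums over all 3 of 114 and 130. The CA9 array had less 18S ribosomal RNA signal, with log2 differences from -2.15 to -0.92, and the 3 probe sets for 28S ran from -2.75 to 0.29. The 18 hybridisation spike-in probe sets had a median difference of 0.41, as large as many of the member differences, whereas the 3′ minus 5′ signal of ACTB was 0.67 and 0.73. The part of these differences in the values below was not tested.

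FGF9 read 46.4 with CA9 and 151 with the vector in its brighter probe set (206404_at). This is a log2 difference of -1.70, or 3.25-fold lower with CA9. Both arrays lay above the floor, the CA9 array by a small margin. In the order of all measurable genes FGF9 was 17th from the most negative difference, and 0.123% of genes were as low or lower. This standing uses the value by which the set was chosen, so it is a description only. In its intensity bin, bin 2 of 5, differences had an SD of 0.40, 4 of 2764 genes were as low as FGF9 or lower, and 1.09% were called lower. The other FGF9 probe set (239178_at) read 12.6 with CA9 and 16.2 with the vector. That is below the floor on both arrays, so it gives no fold. Its sign was the same, at -0.37, and the mean over both FGF9 probe sets was -1.03. With a floor at the 75th percentile, 105, the CA9 value itself would lie below it, and FGF9 would be at least 1.44-fold lower.

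FGF2, a ligand that lacks a classical secretion signal, was also dimmer in the CA9 line, by less. Its brighter probe set (204421_s_at) read 133 with CA9 and 171 with the vector, a difference of -0.36. The other FGF2 probe set (204422_s_at) read 55.5 and 91.7, a difference of -0.72, or 1.65-fold lower. The SD between these probe sets was 0.25, and neither reached 2-fold. In the intensity bin of FGF2 the median difference was -0.06 and the SD 0.40, so the brighter FGF2 probe set lay within 1 SD of the median of its bin.

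**Figure D2:**
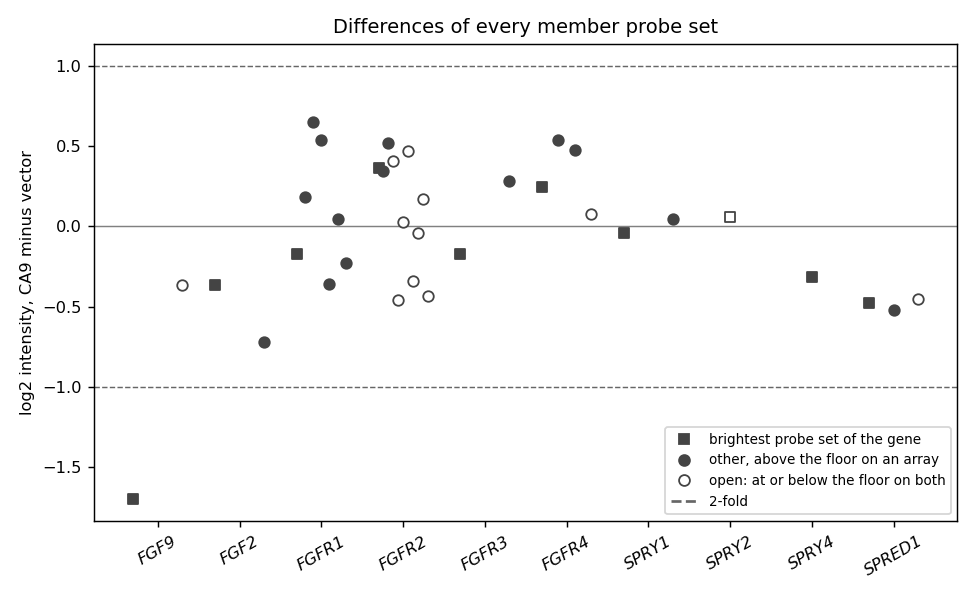
Log2 difference, CA9 minus vector, of every probe set of the 10 genes. Squares are the probe set that stands for the gene, open symbols lie at or below the floor on both arrays, and dashed lines mark 2-fold. FGF9 at -1.70 is the only point beyond 2-fold, FGF2, SPRY4 and SPRED1 lie below 0 in every probe set, FGFR4 lies above 0 in all 4, and FGFR1 spreads from -0.36 to 0.65.

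FGFR1 encodes a receptor with many splice forms and had 7 measurable probe sets, which disagreed in sign. The brightest (226705_at) read 279 with CA9 and 315 with the vector, a difference of -0.17. The next (211535_s_at) read 286 and 252, a difference of 0.18. Probe set 210973_s_at read 274 against 175, a difference of 0.65 and 1.57-fold higher, and 207937_x_at read 144 against 99.3, a difference of 0.54. In all, 4 FGFR1 probe sets were above 0 and 3 below, with an SD of 0.39 and a mean of 0.09. The suffix _s_at marks probe sets that can detect related transcripts, and _x_at those with possible cross-hybridisation. The 4 FGFR1 probe sets above 0 all carry one of these suffixes, and the 3 below 0 carry neither. No direction is given for FGFR1, since it turned from -0.17 to 0.09 when probe sets were averaged.

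FGFR4, a receptor of epithelial tissues and liver, was brighter on the CA9 array in all 4 probe sets, none of them at 1.5-fold. The brightest (1554962_a_at) read 131 with CA9 and 111 with the vector, a difference of 0.24. Probe set 211237_s_at read 98.3 and 67.6, a difference of 0.54, and 204579_at read 85.4 and 61.5, a difference of 0.47. The remaining one (1554961_at) lay below the floor on both arrays. FGFR4 was above 0 under every alternative tried, from 0.18 to 0.42. Its bin had a median difference of -0.06, with an SD of 0.40.

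FGFR2, whose alternatively spliced immunoglobulin-like domain separates an epithelial from a mesenchymal receptor form, had 8 probe sets below the floor on both arrays. Of its 11 probe sets 3 were measurable, and all 3 were brighter on the CA9 array. The brightest (208234_x_at), with the suffix for possible cross-hybridisation, read 108 with CA9 and 83.6 with the vector, a difference of 0.37. Probe set 211398_at read 63.7 and 50.2, a difference of 0.34, and 211400_at read 47.3 and 32.9, the vector value lying below the floor. Since 211400_at passed the floor on the CA9 array alone, it could only be brighter there. The 8 probe sets below the floor were mixed, and over all 11 there were 7 above 0 and 4 below, with a mean of 0.09. The dim bins themselves leaned upward, with a median of 0.07 in the bin of FGFR2. Which receptor form was present cannot be read from these probe sets.

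FGFR3 read 49.1 with CA9 and 55.3 with the vector in its brighter probe set (204379_s_at), a difference of -0.17. In the other (204380_s_at) it read 40.9 and 33.6, with the CA9 value barely above the floor, a difference of 0.28. The probe sets of FGFR3 thus had opposite signs. No direction is given for it, and the average was 0.05.

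**Figure D3:**
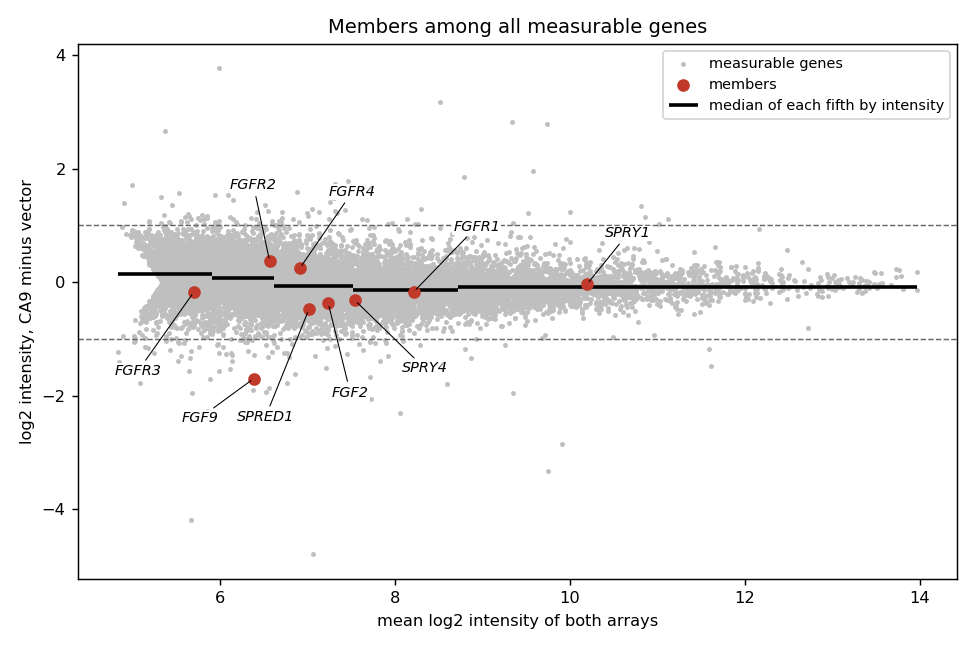
Log2 difference, CA9 minus vector, against mean log2 intensity for 13823 measurable genes (grey) and the 9 measurable members (red), with the median of each of 5 intensity bins as a black line and dashed lines at 2-fold. FGF9 lies below the 2-fold line at -1.70, and the other members lie between -0.48 and 0.37 inside the grey cloud.

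Among the Sprouty and SPRED members SPRED1 had the difference farthest from 0. It encodes a membrane-bound protein that brings the RAS inhibitor neurofibromin to RAS. The brightest SPRED1 probe set (226837_at) read 110 with CA9 and 153 with the vector, a difference of -0.48. Probe set 235074_at read 39.2 and 56.2, a difference of -0.52 with the CA9 value below the floor, and 244439_at read 19.8 and 27.1, below the floor on both. The SPRED1 probe sets lay between -0.52 and -0.45, a narrow range, but the difference was 1.39-fold, in a bin with a median of -0.06 and differences with an SD of 0.40.

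SPRY4, a Sprouty protein induced by FGF and other growth factors, has 1 probe set here (221489_s_at). It read 167 with CA9 and 208 with the vector, a difference of -0.32, where the median of its bin was -0.14 and the SD 0.32. SPRY1, another Sprouty, was nearly level. Its brighter probe set (212558_at) read 1156 with CA9 and 1189 with the vector, a difference of -0.04, and the other (230212_at) read 391 and 379, a difference of 0.05. SPRY2 lay below the floor on both arrays, at 21.9 with CA9 and 21.0 with the vector, so no fold is given. At 1.5-fold 2 of the 23 measurable probe sets of the 10 genes were lower, those of FGF9 and FGF2 named above, and 1 of FGFR1 was higher. Of all 24174 measurable single-gene probe sets 5.69% were lower and 5.81% higher by this rule, and by the 2-fold rule 0.782% were lower and 0.749% higher.

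The other genes of the pathway were described from lists by role. Of 16 other secreted FGF ligands 13 were measurable and none was called, where 0.694% of all measurable genes were called lower and 0.651% higher. The median difference of the 13 ligands was 0.30, with 11 above 0, none below and 2 equal on both arrays. Of the 13, 12 lay in the 2 dimmest bins, which leaned upward by 0.14 and 0.07. FGF8 and FGF10, the farthest from 0, had log2 differences of 0.80 and 0.67 with the vector array below the floor, so that the bounds are at least 1.16-fold higher for FGF8 and at least 1.05-fold for FGF10. The measurable ligands below 0 were thus FGF9 and FGF2, but the filter bears on this count. FGF3, FGF5, FGF8, FGF10 and FGF23 passed the floor on the CA9 array alone, so they could only lie above 0. FGF19, below the floor on both arrays, had a difference of -0.09. FGF7 and FGF20, also below it on both, had differences of 0.02 and 0.28. With no floor the list's median was 0.29. FGF16 and FGF20 belong to the same subfamily as FGF9. FGF16 read 72.0 with CA9 and 51.6 with the vector, a difference of 0.48, and FGF20 lay below the floor on both arrays. Of the 4 intracellular FGF homologous factors, which do not act through these receptors, FGF11 alone was measurable, at -0.15.

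Of 24 measurable co-receptors, heparan sulphate genes and FGF-binding proteins, 1 was called, lower, and the median was -0.16 with 15 below 0. Among all measurable genes 0.694% were called lower and 53.0% lay below 0. The called gene was FGFBP3, which encodes a secreted FGF-binding protein. It read 24.3 with CA9 and 54.2 with the vector, which against the floor is at least 1.33-fold lower. With the floor at the 75th percentile it was not measurable and the list had no call. FGFBP3 passed the floor on the vector array alone, so it could only lie below 0. FLRT2 passed it on the CA9 array alone and could only lie above 0. HS6ST2, a sulphotransferase that adds 6-O-sulphate to heparan sulphate, read 233 against 400.1 in its brightest probe set, a difference of -0.78 and short of 2-fold. Its other measurable probe sets were lower too, 1 at 138 against 287 with a difference of -1.05, and 1 at -0.78 with the CA9 array below the floor. The latter passed the floor on the vector array alone, so it could only be lower.

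Adaptors and kinases of the ERK cascade had a median of 0.25 over 19 measurable genes, with 11 above 0 and none called. Among all measurable genes 53.0% lay below 0, 0.694% were called lower and 0.651% higher. At those shares the absence of a call among 19 genes says little. KSR1, a scaffold of the cascade, was 1.95-fold higher at 119 against 61.1, but its other measurable probe sets had differences of -0.13, -0.16 and, with the vector array below the floor, 0.66. MAP2K2, which encodes the ERK kinase MEK2, was 1.74-fold higher at 897 against 514, with a second measurable probe set at 0.93. SHC1, an adaptor, had a difference of 0.40 in its brightest probe set, at 1167 against 882, and its other probe set passed 2-fold, at 234 against 96.3, 2.43-fold higher. SHC1 lies outside the naming rule and was chosen after its values were seen. The list's median was 0.02 without probe sets named _x_at or _s_at.

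Of 12 other measurable feedback inhibitors none was called, and their median was -0.09 with 8 below 0. Among all measurable genes 53.0% lay below 0, 0.694% were called lower and 0.651% higher. The absence of a call in so short a list, here or for the ERK-responsive transcripts, thus says little. ERRFI1, an inhibitor of the EGF receptor family, was 1.96-fold lower at 86.3 against 169, just short of the 2-fold rule, which it passed when the array medians were set equal. The phosphatase gene DUSP5 had a difference of -0.54. DUSP6, the ERK phosphatase widely used as a readout of FGF signalling, lies outside the naming rule and was looked at after its value was seen. It read 234 against 295 in its brightest probe set, a difference of -0.33, and its other probe sets had -0.32 and -0.04. The median of its intensity bin was -0.14 and the SD 0.32. Of 14 ERK-responsive transcripts none was called, the median was -0.07, and 6 lay above 0. That median turned to 0.09 with averages over all probe sets and to 0.14 with averages over those above the floor, so no direction is given. Among genes chosen after their values were seen, the early gene EGR1 had a difference of -0.08 in its brightest probe set and of 0.64 and 0.51 in the others. The ETS factor ETV5 had -0.21 in its brightest and 0.40, 0.59 and -0.01 in its other measurable ones. ETV4, another ETS factor, had 0.30 in its brightest and 0.65 in its other. FOS had a difference of -0.51 and IER3 one of 0.47, the farthest from 0 in each direction among the brightest probe sets of this list. Of the regulators of FGFR2 splicing 4 were measurable, all below 0 in their brightest probe set with a median of -0.27, RBFOX2 at -0.36 and HNRNPA1 at -0.35. All 4 lay in the brightest intensity bin, with a median of -0.09 and an SD of 0.28, and 53.0% of all measurable genes lay below 0. PTBP1 had other probe sets at -0.16, 0.46 and, with the vector array below the floor, 0.57. The other measurable probe sets of RBFOX2, TIA1 and HNRNPA1 lay below 0. ESRP1, the epithelial regulator that favours the epithelial FGFR2 form, lay below the floor on both arrays, at 15.4 and 15.6.

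**Figure D4:**
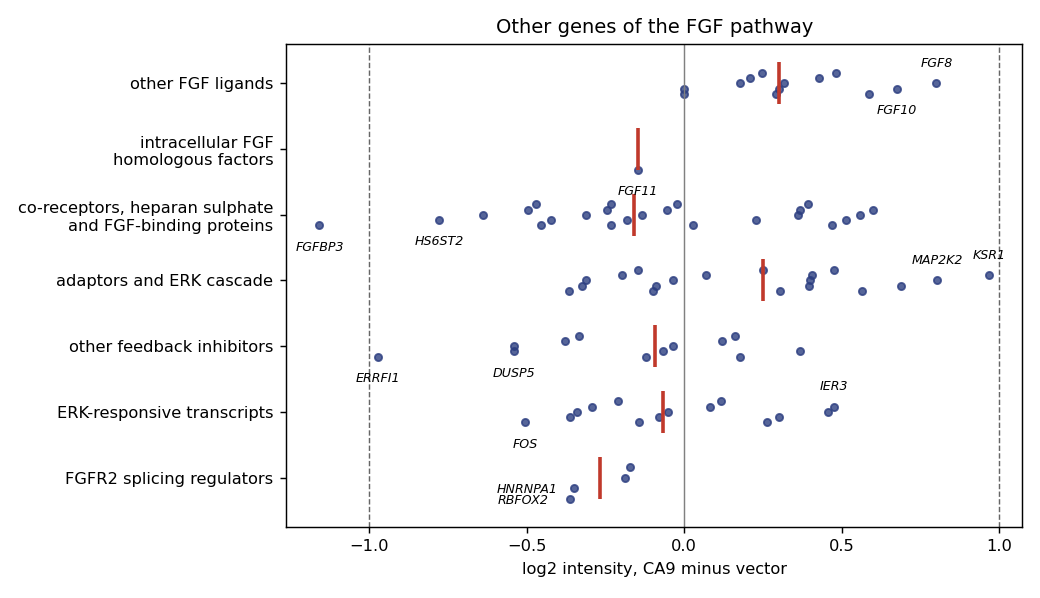
Log2 difference, CA9 minus vector, of each measurable gene of 7 lists of the FGF pathway, with the list's median as a vertical bar and dashed lines at 2-fold. FGFBP3, above the floor on the vector array alone, is the only point beyond 2-fold. The other measurable secreted ligands lie at or above 0, several of them above the floor on the CA9 array alone.

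No measurable neighbour of FGF9 was called. Over all measurable genes 0.694% were called lower and 0.651% higher, so the absence of a call among so few genes says little. Of the 5 protein-coding genes on each side in the RefSeq order, 6 had single-gene probe sets and 5 of these were measurable. MICU2, a regulator of mitochondrial calcium uptake and the nearest on one side, read 493 with CA9 and 608 with the vector, a difference of -0.30. Further out on that side, ZDHHC20 had a difference of 0.36, the mitochondrial ribosomal gene MRPL57 one of -0.09 and the kinetochore gene SKA3 one of -0.04. On the other side TNFRSF19 lay below the floor on both arrays, and MIPEP, a mitochondrial peptidase, was 1.54-fold lower at 165 against 254.

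The genes whose pair of log2 values lay closest to that of FGF9, by Euclidean distance over the 2 arrays, were RGS20, LINC00052, DSP, FAM76B and SOX8, at distances from 0.14 to 0.35. RGS20 read 43.2 with CA9 and 161 with the vector, and SOX8 read 59.0 and 148. With 2 arrays this likeness says no more than that both values are similar.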

How the data were processed

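The deposited table holds 1 intensity per probe set and array, made by the authors with RMA, per the submitters' processing notes; its version and settings are not given in the sources used here. The values run from 6.79 to 17091, whereas RMA output is usually in log2, so they were read as linear and put on log2 with no pseudocount. Gene names came from the platform annotation, updated through Entrez identifiers to RefSeq (GRCh38.p14), and only the 41091 probe sets with 1 gene were used. A gene is its brightest probe set by mean log2 intensity; the floor is the median over all non-control probe sets. Calls are by size, at 2-fold, with "at least" against the floor where the dimmer array lies at or below it. Only 1 array per line limits the precision, and no statistical test was run.

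The members and lists were chosen with earlier results of these data known. Named genes are all members, every called member of each list (filled up to 2 with those farthest from 0), 5 coding neighbours of FGF9 on each side, and the 5 genes nearest to FGF9 in both log2 values; others named were chosen after their values were seen. Of the 10 members, 8 matched the RefSeq promoter table, and motif searches covered the 250 bases before each start. Alternatives were equal array medians, quantile normalization, lowess, other floors, other choices of probe set and a 1.5-fold rule. Python 3.11.15, numpy 2.4.6, pandas 2.3.3, statsmodels 0.14.6 and matplotlib 3.10.9 were used. Some list genes and neighbours were not analysed here.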

Additional observations from a re-analysis of the deposited data

How the results depend on the processing

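FGF9 was the only member gene called under all 10 alternatives, at values from -1.76 to -1.03 on the log2 scale in the 9 that keep the 2-fold rule. The value of -1.03 came from averaging its probe sets, of which 1 lies below the floor. The other floors, the average above the floor and the choice without _x_at or _s_at left FGF9 at -1.70. Those settings kept the same probe set, and a call does not weigh the floor, so they could not move this value. With the floor at the 75th percentile FGF9 was at least 1.44-fold lower, a bound short of 2-fold. A 1.5-fold rule called 3 member probe sets in place of 1. The median over the members ran from -0.25 to 0.00. FGF2, SPRY4 and SPRED1 stayed below 0, and FGFR2 and FGFR4 above 0, in every alternative that gave them a value. SPRY1 turned to between 0.00 and 0.04 under quantile normalization, lowess and both averages, FGFR1 to 0.09 and FGFR3 to 0.05 under both averages. FGF2, FGFR3 and SPRY4 have no value without probe sets named _x_at or _s_at, nor has FGFR3 with the floor at the 75th percentile or FGFR2 as an average over all its probe sets. Over all genes 90 were called higher and 96 lower, and equal array medians gave 69 and 123. The single array per line and the nearness of many members to the floor limit what can be read. No paired analysis was possible because each line has 1 array.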
